A study of Homo sapiens with 18 samples.

Results

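Pieces of osteosarcoma tumor kept for 14 days as explants were compared with fresh tumor to describe how gene expression differed after explant culture. By their labels, 3 libraries of isolated tissue (IT), the cultured pieces, were set against 3 libraries of fresh isolated tumor tissue (FIT). These are 6 of the 18 libraries of the study, which measured poly(A) RNA by strand-specific sequencing of a human osteosarcoma cell line in 6 groups, which differ in how the cells were grown or in the day of sampling. The line is Saos-2 in the study's methods and spelled Soas-2 in the labels. By those methods, cells were injected in Matrigel, a basement membrane gel, under the skin of BALB/c nude mice, and the tumors were taken out in the second week after injection. Each tumor was divided, with a part put on Matrigel in DMEM-F12 medium with fetal bovine serum as IT and other parts taken fresh as FIT. By these methods IT was sampled 14 days further from injection than FIT, so culture and this added time cannot be told apart. The labels give IT the treatment "culture in vitro" and FIT the treatment "growth in vivo", and give every library the genotype WT and, in the titles of both groups, day 14. Dispersed Saos-2 cells grown for 14 days with Matrigel (D-3, 3 libraries) were the only other group compared.

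Several features limit these groups as models. Nude mice lack T cells but keep other host cells, and the reads were aligned to the human genome alone, so RNA of mouse stroma, vessels and immune cells was either lost or counted on human genes that it resembles. The labels do not say which IT and FIT libraries came from the same tumor or whether the 3 libraries of a group came from separate animals, so the p-values measure only the spread between these libraries, which may be technical. Osteoblast markers were nearly silent in tissue labelled as Saos-2: in none of the 6 libraries did the FPKM (fragments scaled by transcript length and by library size) of ALPL (alkaline phosphatase), SP7 (the osteoblast factor osterix) or IBSP (bone sialoprotein) exceed 0.148. In bulk samples such as these, fewer cells of a type and less RNA per cell cannot be told apart.

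A piece of tumor that is cut out loses its blood supply, so oxygen, nutrients and waste move by diffusion alone, and it also loses circulating hormones and cytokines and the contact with incoming host cells. The medium in turn supplies glucose, amino acids and serum at set levels, and the cut surface can behave like a wound. Cells answer low oxygen through the HIF factors, oxidative and heme stress through NRF2, amino acid shortage through ATF4, misfolded protein in the endoplasmic reticulum through the unfolded protein response, and interferon through STAT factors. The target genes of these factors were therefore described as programs, each a list of genes.

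The 6 libraries held between 23721666 and 66769999 estimated counts. FIT replicate 3 was the shallow one with 23721666, whereas the other two FIT libraries held 64271701 and 65871171. The share of counts on mitochondrially encoded genes was 4.57% to 6.21% in IT and 5.04% to 6.21% in FIT. Within a group, replicates 1 and 2 were the closest pair, with a Pearson r across genes of 0.983 in IT and 0.985 in FIT on log2 CPM, while replicate 3 reached 0.967 to 0.972 with the other two of its group. Correlations between IT and FIT libraries lay between 0.952 and 0.975, so replicate 3 stood in both cases about as far from its own group as some libraries of the other group did. The summed FPKM of the 15 skeletal muscle markers was 6.82 in FIT replicate 3, of which MYH2 made 3.61, and 1.08 to 2.86 in the other libraries; single members such as TNNC2, with 0.606 in FIT replicate 1, peaked elsewhere. The 10 fibroblast markers were mixed, since COL3A1 (3.94) and DPT (4.26) were highest in FIT replicate 3. PDGFRA was lower there (12.6) than in FIT replicates 1 and 2 (24.25 and 28.26), and its lowest library was IT replicate 3 (9.24). The part of these markers in the results was not tested.

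Of 50119 genes listed, 21183 reached an FPKM of 0.1 in at least 3 of the 6 libraries and were tested. With edgeR's quasi-likelihood test and Benjamini-Hochberg adjustment over all of them, 0 genes (0%) passed an adjusted p of 0.05 with a fold of 2, and the smallest adjusted p was 0.0902. At an unadjusted p below 0.05 there were 2693 genes, 1520 higher in IT (7.18%) and 1173 lower (5.54%). On the same counts DESeq2 called 644 genes, edgeR's likelihood-ratio test 433 and a quasi-likelihood fit of all 18 libraries 553. These 3 tests together called 220 genes higher in IT (1.04% of genes tested) and 104 lower (0.491%). They use the same IT and FIT libraries as the main test, so their calls are not independent of it or of each other. The fit of all 18 libraries also takes its spread from the other groups, and the spread of IT and FIT differs from that of the dish cultures. The libraries did not overlap, that is every IT library lay above every FIT library in CPM (counts scaled to library size) after TMM scaling, for 2403 genes (11.3%), and every IT library lay below for 2005 genes (9.47%); with a fold of at least 2 these were 939 and 629 genes. The median log2 fold change of all genes tested was 0.0063. Because the quasi-likelihood test called nothing, genes are described below as higher or lower in all 3 libraries where the groups do not overlap. A call by all 3 other tests is stated for only some of the genes that had it, so silence on the calls tells nothing either way. Adjusted p-values are those of the quasi-likelihood test, values in the 3 libraries of a group are FPKM in the order of replicates 1 to 3, and fold changes are IT over FIT on the log2 scale with their standard error (SE).

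**Figure D1:**
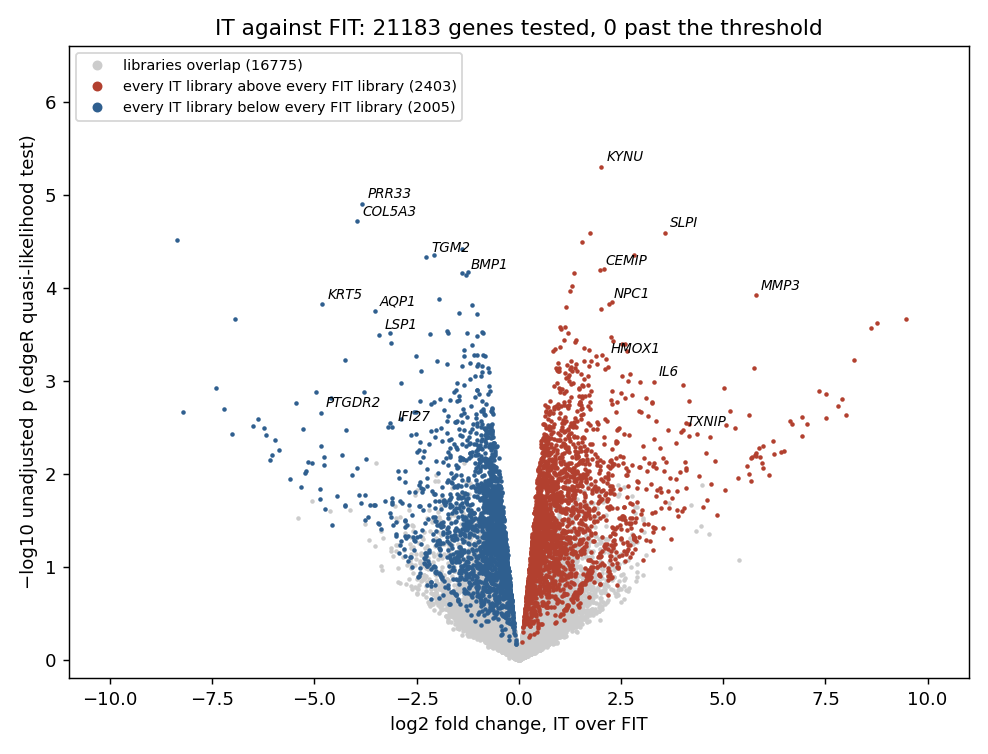
Each point is 1 of the 21183 genes tested, with the log2 fold change of IT over FIT on the horizontal axis and −log10 of the unadjusted quasi-likelihood p on the vertical axis. Colour marks the 2403 genes with every IT library above every FIT library, the 2005 with every IT library below, and in grey the genes that overlap; some named genes are labelled, and none of the points passed the threshold after adjustment.

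Among genes above 0 in every library, averaging 1 FPKM or more in either group and without overlap, the 12 largest differences towards IT included secreted proteins and stress-induced genes. MMP3, the matrix protease stromelysin 1, had 3.11, 12.8 and 26.3 in IT and 0.189, 0.252 and 0.320 in FIT. This gave MMP3 a log2 fold change of 5.79 (SE 0.81, adjusted p = 0.127), and MMP3 was called by all 3 other tests. The lowest IT library was far above the highest FIT library, although the IT libraries themselves spread widely. SLPI and PI3, epithelial inhibitors of neutrophil elastase that lie on chromosome 20 at positions 45252239 to 45254564 and 45174902 to 45176544 of GRCh38, behaved alike in direction. SLPI had 14.2, 8.48 and 15.6 in IT and 0.850, 1.18 and 1.12 in FIT, with a log2 fold change of 3.57 (SE 0.40, adjusted p = 0.0902). PI3 had 1.78, 7.54 and 2.37 in IT and 0.167, 0.681 and 0.245 in FIT, with a log2 fold change of 3.31 (SE 0.83, adjusted p = 0.215). PI3 was not called by all 3 other tests. SLPI was even within both groups, while PI3 was uneven in both groups because replicate 2 was the highest in each.

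TXNIP, a thioredoxin-binding protein induced by glucose, had 62.7, 17.2 and 312 in IT and 9.30, 9.48 and 6.51 in FIT. TXNIP was called by all 3 other tests, with a log2 fold change of 3.96 (SE 0.96, adjusted p = 0.21). As for every gene named by this rule, its lowest IT library lay above the highest FIT library. GDF15, a stress-induced cytokine of the TGF-beta superfamily, had 21.7, 1.87 and 18.8 in IT and 1.65, 1.20 and 0.453 in FIT. The log2 fold change of GDF15 was 3.64 (SE 0.87, adjusted p = 0.208), and it was called by all 3 other tests. Its IT replicate 2 barely cleared the FIT range, so the size of this difference rests on the other two IT libraries. SOD2, the mitochondrial superoxide dismutase induced by inflammatory signals, had 13.2, 10.5 and 64.5 in IT and 4.02, 3.63 and 2.32 in FIT, with a log2 fold change of 3.15 (SE 0.71, adjusted p = 0.201). IL6, the interleukin that drives STAT3 signalling, had 5.43, 3.68 and 14.1 in IT and 1.35, 0.555 and 0.357 in FIT, with a log2 fold change of 3.29 (SE 0.65, adjusted p = 0.179). In both, IT replicate 3 was the highest library. PLEK2, a membrane protein of the actin cytoskeleton, had 1.73, 1.34 and 0.788 in IT and 0.0116, 0.120 and 0.0844 in FIT, with a log2 fold change of 4.02 (SE 0.80, adjusted p = 0.18). SBSN, the epidermal secreted protein suprabasin, had 7.07, 15.9 and 39.0 in IT and 1.37, 3.52 and 1.45 in FIT, with a log2 fold change of 3.26 (SE 0.70, adjusted p = 0.194). FGG, the fibrinogen gamma chain, had 3.93, 3.49 and 4.66 in IT and 0.0796, 0.262 and 0.882 in FIT, with a log2 fold change of 3.35 (SE 0.77, adjusted p = 0.208). FGG was not called by all 3 other tests. The remaining members of the 12 largest were FUT1 and IL21R.

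Differences of smaller size but narrow spread had the smallest p-values. KYNU, the tryptophan-breakdown enzyme kynureninase, had 2.45, 2.24 and 2.13 in IT and 0.637, 0.560 and 0.477 in FIT. This gave KYNU a log2 fold change of 2.02 (SE 0.18, adjusted p = 0.0902), and KYNU was called by all 3 other tests. Both groups were narrow for this gene. CEMIP, a hyaluronan-degrading protein, had 37.4, 24.1 and 39.4 in IT and 8.86, 9.87 and 6.5 in FIT, with a log2 fold change of 1.99 (SE 0.26, adjusted p = 0.0904). NPC1, which moves cholesterol out of lysosomes, had 45.7, 26.3 and 38.2 in IT and 9.68, 9.34 and 4.89 in FIT, with a log2 fold change of 2.20 (SE 0.32, adjusted p = 0.131). EIF4B, a translation initiation factor, had 92.5, 97.5 and 115 in IT and 41.0, 38.9 and 49.2 in FIT, with a log2 fold change of 1.25 (SE 0.17, adjusted p = 0.121). For all of them the lowest IT library was well above the highest FIT library, where the rule for naming genes required only that it be above. ITPR1, LRRC20, SEL1L3, MED22, GRAMD4 and ITGAX completed the 12 smallest p-values towards IT together with SLPI and MMP3. MED22 was not called by all 3 other tests.

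The largest differences towards FIT, that is transcripts lower after culture, were led by receptors and keratins of low level. PTGDR2, a prostaglandin D2 receptor, had an FPKM listed at 9e-06 in IT replicate 1, 0.366 and 0.358 in the other IT libraries and 6.06, 4.06 and 11.4 in FIT. PTGDR2 was called by all 3 other tests, with a log2 fold change of -4.85 (SE 1.08, adjusted p = 0.197). KRT5, a keratin of basal epithelium whose neighbour KRT6A is also in the list, had 0.0689, 0.0218 and 0.0265 in IT and 0.642, 0.917 and 2.04 in FIT. The log2 fold change of KRT5 was -4.82 (SE 0.70, adjusted p = 0.131), and it was called by all 3 other tests. Both keratin genes lie on chromosome 12 between 52487176 and 52520394, and share sequence with other keratins and with their mouse counterparts, so their reads are uncertain. KRT14, the partner of KRT5 in basal keratinocytes, had 0.136, 0 and 0.336 in IT and 10.4, 1.67 and 0.115 in FIT, so that FIT replicate 1 stood far above the rest and FIT replicate 3 lay within the IT range. Summed over the 9 keratinocyte markers found among the genes listed, the FPKM was 27.3 to 30.6 in IT and 27.7 to 57.6 in FIT. Most of each sum was KRT10, with 19.6 to 27.2 in IT and 19.4 to 30.2 in FIT. KRT10 had 23.7 to 26.4 in the dispersed Saos-2 cells of D-3. The part of keratinocytes in the result was not tested.

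COL5A3, a fibrillar collagen chain, had 0.374, 0.171 and 0.191 in IT and 3.10, 5.32 and 3.02 in FIT. This gave COL5A3 a log2 fold change of -3.97 (SE 0.43, adjusted p = 0.0902), and COL5A3 was called by all 3 other tests. AQP1, a water channel, had 0.347, 0.127 and 0.440 in IT and 5.11, 2.40 and 3.25 in FIT, with a log2 fold change of -3.52 (SE 0.52, adjusted p = 0.133). Both were lower in all IT libraries, as the rule for naming genes required, and no library was near the other group. LSP1, an actin-binding protein of leukocytes, had 0.295, 1.24 and 0.382 in IT and 5.81, 6.97 and 7.96 in FIT, with a log2 fold change of -3.42 (SE 0.56, adjusted p = 0.147). PRR33 had 0.155, 0.244 and 0.115 in IT and 2.33, 2.27 and 2.87 in FIT, with a log2 fold change of -3.83 (SE 0.39, adjusted p = 0.0902). PRR33 lies on the minus strand of chromosome 11 at 1888078 to 1891895, inside the interval of LSP1 on the plus strand at 1850904 to 1892267, so these are overlapping genes and their reads may not be fully separated. CD180, a Toll-like receptor homologue of B cells, had 0.757, 0.239 and 0.225 in IT and 4.46, 3.64 and 2.54 in FIT, with a log2 fold change of -3.12 (SE 0.52, adjusted p = 0.156). IFI27 is described with the interferon genes, and NFATC2 and CSNK1A1L were further members of the 12. KRT6A and CSNK1A1L were not called by all 3 other tests. Lower differences with a narrow spread were those of ADD3, a protein of the membrane skeleton, and TGM2, the tissue transglutaminase that crosslinks matrix. ADD3 had 18.6, 16.3 and 13.3 in IT and 43.2, 38.5 and 43.8 in FIT, with a log2 fold change of -1.38 (SE 0.16, adjusted p = 0.0902). TGM2 had 0.511, 0.345 and 0.475 in IT and 2.10, 1.69 and 2.72 in FIT, with a log2 fold change of -2.28 (SE 0.28, adjusted p = 0.0902). For each of them the highest IT library stayed under the lowest FIT library, as the rule for naming genes required.

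**Figure D2:**
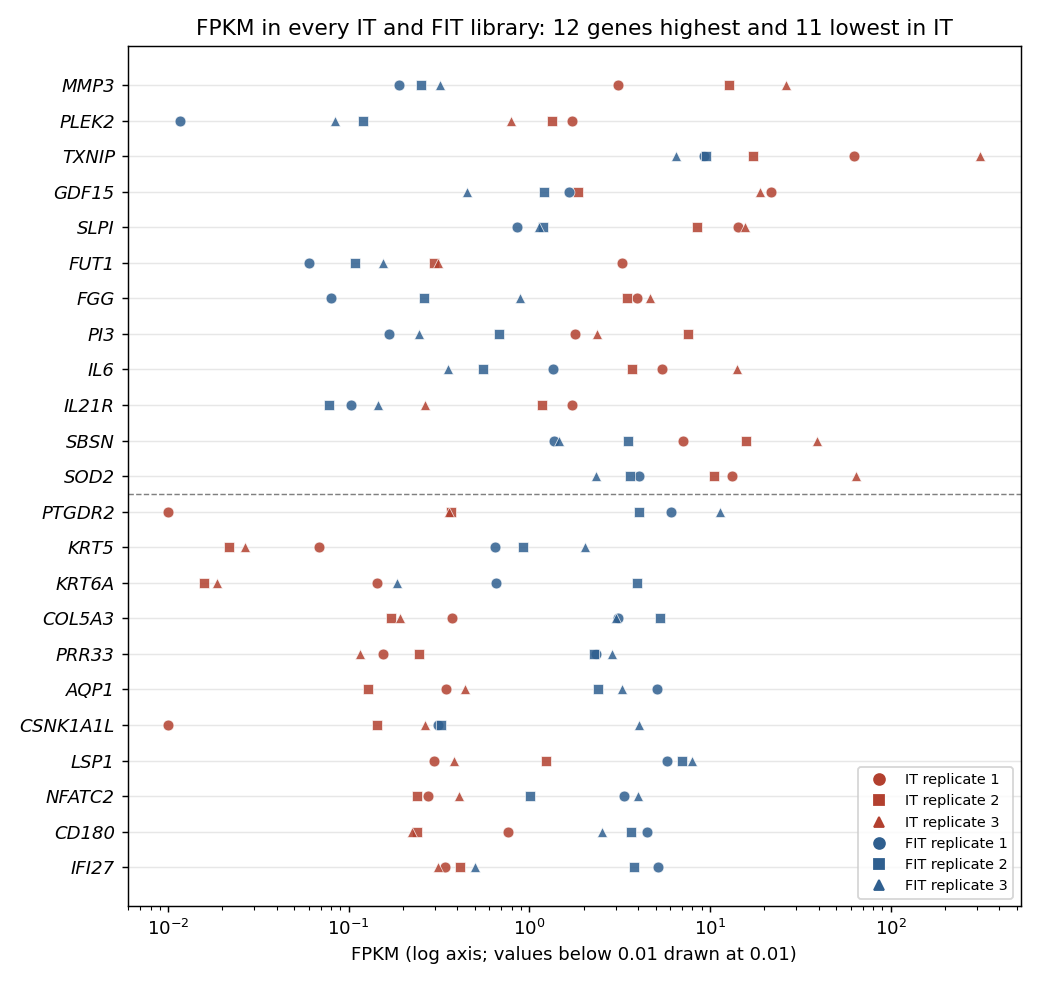
FPKM on a log axis in every library for the 12 genes with the highest log2 fold change and 11 of the 12 with the lowest, with red for IT, blue for FIT and a marker shape for each replicate. The colours do not mix in any row because the rule took genes without overlap, and the spread within a colour shows how uneven genes such as TXNIP and GDF15 were.

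The programs are given next by the number of members whose libraries did not overlap, to be read against the 11.3% of all genes that lay higher and 9.47% that lay lower in this way. All lists were written with results of these data known, and their counts are descriptions without a test. The plot of list scores places each library on each program.

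**Figure D3:**
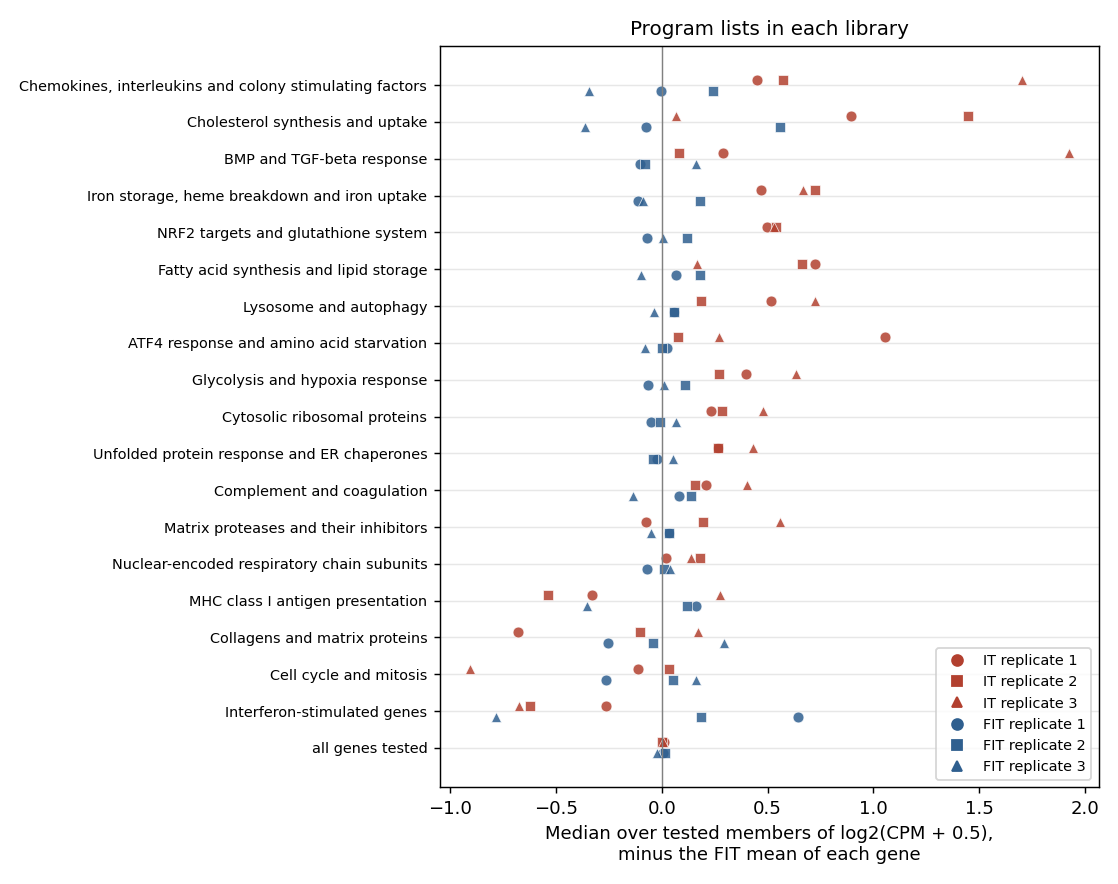
Score of each program list in each library, the median over tested members of log2(CPM + 0.5) minus the FIT mean of each gene, with red for IT, blue for FIT and a marker shape for each replicate. FIT replicate 3 lies with the IT libraries, at the low end, for interferon-stimulated genes, and IT replicate 3 stands apart for the BMP and TGF-beta response (1.92) and for the cell cycle (-0.91).

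Genes that HIF induces at low oxygen and the enzymes of glycolysis were higher in IT for 13 of 36 members tested, and 1 was lower, with a median log2 fold change of 0.53. NDRG1, a hypoxia-induced regulator of cell growth, had 42.1, 24.2 and 55.0 in IT and 12.7, 13.3 and 10.8 in FIT. NDRG1 was called by all 3 other tests, with a log2 fold change of 1.72 (SE 0.30, adjusted p = 0.16). SLC2A3, a glucose transporter, had 22.4, 15.1 and 22.8 in IT and 9.54, 7.63 and 3.96 in FIT, with a log2 fold change of 1.51 (SE 0.33, adjusted p = 0.195). LOX, the lysyl oxidase that crosslinks collagen, had 21.5, 20.2 and 33.5 in IT and 8.94, 9.89 and 15.9 in FIT, with a log2 fold change of 1.12 (SE 0.29, adjusted p = 0.222). These 3 were the members called by DESeq2, the likelihood-ratio test and the fit of all 18 libraries. P4HA1, a collagen prolyl hydroxylase, had 12.9, 14.2 and 31.6 in IT and 9.88, 6.12 and 8.81 in FIT and BNIP3, a mitophagy receptor, had 6.98, 8.52 and 9.50 in IT and 4.74, 5.12 and 6.12 in FIT. VEGFA, the endothelial growth factor that is the best known HIF target, had 42.9, 22.0 and 42.2 in IT and 21.0, 18.2 and 24.5 in FIT and overlapped between groups. LDHA, which reduces pyruvate to lactate, was the member lower in all IT libraries, with 101, 104 and 92.7 in IT and 116, 152 and 135 in FIT, which is a log2 fold change of -0.44 (SE 0.18, adjusted p = 0.377). Of the enzymes of the glycolytic core, GAPDH, ALDOA, PGK1, PKM, TPI1 and ENO1 all overlapped between groups.

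The hypoxia element ACGTG, searched on both strands, was present in 14 of 32 promoters of this list that RefSeq gave for GRCh38.p14 (43.8%), and in 21.6% of all 27305 promoters of the same length, from 250 bases before to 50 bases after the gene start. The 3 stretches below are shown because these members lay higher in all IT libraries and hold the element. Capitals mark it or its reverse complement, and the stretches run 5′ to 3′ on the strand of the gene.
LOX (chr5:122078277-122078464, minus strand): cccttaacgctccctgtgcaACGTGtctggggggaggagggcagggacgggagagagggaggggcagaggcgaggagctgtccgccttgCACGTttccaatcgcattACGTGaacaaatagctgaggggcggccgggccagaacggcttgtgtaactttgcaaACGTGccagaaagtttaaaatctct
P4HA1 (chr10:73096891-73097010, minus strand): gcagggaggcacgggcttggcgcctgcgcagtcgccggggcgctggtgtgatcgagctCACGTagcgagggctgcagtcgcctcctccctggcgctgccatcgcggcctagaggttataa
BNIP3 (chr10:131981995-131982114, minus strand): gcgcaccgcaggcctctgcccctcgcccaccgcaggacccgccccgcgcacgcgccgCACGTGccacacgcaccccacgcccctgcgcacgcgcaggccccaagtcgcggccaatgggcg
The element was found in 7 of the 11 promoters of members whose libraries did not overlap in either direction, and a match describes letters only.

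Iron storage and heme breakdown had 8 of 16 members higher in all IT libraries and 0 lower, with a median of 0.67. HMOX1, the heme oxygenase that frees iron from heme, had 66.2, 44.7 and 84.6 in IT and 13.3, 21.8 and 9.18 in FIT. The log2 fold change of HMOX1 was 2.12 (SE 0.38, adjusted p = 0.16), and it was called by all 3 other tests. FTH1 and FTL, the heavy and light chains of the iron store ferritin, were high in both groups. FTH1 had 672, 489.7 and 1118 in IT and 237, 258 and 286 in FIT, with a log2 fold change of 1.55 (SE 0.31, adjusted p = 0.18). FTL had 1141, 745 and 2266 in IT and 519, 404 and 263 in FIT, with a log2 fold change of 1.81 (SE 0.43, adjusted p = 0.208). TFRC, the transferrin receptor, which is usually regulated opposite to ferritin by cell iron, had 28.1, 38.3 and 29.8 in IT and 13.7, 21.7 and 16.9 in FIT and was likewise higher in all IT libraries, with a log2 fold change of 0.87 (SE 0.24, adjusted p = 0.236). Ferritin genes have many processed copies in the genome, so their reads are uncertain.

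NRF2 targets and the glutathione system were higher in all IT libraries for 11 of 27 members and lower for 0, with a median of 0.68 and 24 members above 0. NQO1, a quinone reductase, had 22.3, 16.8 and 30.2 in IT and 7.31, 9.08 and 10.3 in FIT. This gave NQO1 a log2 fold change of 1.38 (SE 0.26, adjusted p = 0.16), and NQO1 was called by all 3 other tests. TXNRD1, the thioredoxin reductase, had 20.6, 17.9 and 17.8 in IT and 10.1, 10.7 and 10.7 in FIT, with a log2 fold change of 0.83 (SE 0.14, adjusted p = 0.16). ME1, the malic enzyme that makes NADPH, had 28.4, 23.6 and 24.0 in IT and 12.9, 14.5 and 9.14 in FIT, with a log2 fold change of 1.05 (SE 0.21, adjusted p = 0.184). In TXNRD1 and ME1 the IT libraries were close to each other. GCLM, a subunit of the enzyme that starts glutathione synthesis, had 11.8, 14.4 and 10.2 in IT and 6.78, 10.3 and 5.38 in FIT and overlapped. SLC7A11, the cystine importer, had 5.47, 1.69 and 1.15 in IT and 0.676, 1.29 and 1.6 in FIT and overlapped as well, as did GPX4, the lipid peroxide reductase, with 43.6, 33.7 and 64.6 in IT and 38.9, 37.0 and 42.8 in FIT.

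The antioxidant element TGACNNNGC stood in 5 of 21 promoters of this list (23.8%) against 13.6% of all promoters. The promoters of TXNRD1 and ME1 are shown because both hold it, with the element in capitals.
TXNRD1 (chr12:104215670-104215789, plus strand): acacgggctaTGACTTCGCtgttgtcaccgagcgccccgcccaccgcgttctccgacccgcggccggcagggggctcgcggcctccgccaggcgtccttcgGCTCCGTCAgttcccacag
ME1 (chr6:83431012-83431208, minus strand): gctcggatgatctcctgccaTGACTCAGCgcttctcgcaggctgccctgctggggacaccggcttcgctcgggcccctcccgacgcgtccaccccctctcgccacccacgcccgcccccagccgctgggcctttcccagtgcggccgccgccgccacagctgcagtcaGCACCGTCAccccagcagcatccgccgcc
Among members higher in all IT libraries, 2 of 9 promoters held it. In the iron and heme list 1 of 13 promoters held the same letters (7.69%), which is below the share of all promoters, and 0 of 6 of its members higher in all IT libraries did.

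Lysosome and autophagy genes were higher in all IT libraries for 13 of 30 members and lower for 0, with a median of 0.52. CTSL and CTSB are lysosomal cysteine proteases. CTSL had 134, 97.9 and 145 in IT and 61.0, 60.5 and 43.7 in FIT, with a log2 fold change of 1.19 (SE 0.22, adjusted p = 0.16). CTSB had 144, 115 and 283 in IT and 93.5, 64.3 and 77.3 in FIT, with a log2 fold change of 1.22 (SE 0.34, adjusted p = 0.239). SQSTM1, the autophagy receptor p62, had 162, 70.9 and 138 in IT and 63.2, 44.0 and 40.6 in FIT, with a log2 fold change of 1.33 (SE 0.31, adjusted p = 0.208). All of them were called by the 3 other tests. The lysosomal membrane proteins LAMP1 and LAMP2 overlapped between groups, with 34.4, 34.6 and 48.7 in IT and 31.8, 33.0 and 37.5 in FIT for LAMP1 and 24.2, 26.9 and 37.0 in IT and 22.2, 23.3 and 29.7 in FIT for LAMP2. Thus proteases, NPC1 and SQSTM1 were higher while the abundant membrane markers of the organelle were not separated. The element CACGTG, to which TFEB binds and which overlaps ACGTG, was found in 5 of 18 promoters of the list (27.8%) and 7.43% of all, and in 1 of 6 of its members higher in all IT libraries; it was added after the data were seen.

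Cholesterol synthesis genes scored higher in IT replicates 1 and 2 than in any FIT library, but not in IT replicate 3. Of 24 cholesterol genes 3 were higher in all IT libraries and 0 lower, although the median was 0.85. DHCR7, the last reductase of cholesterol synthesis, had 14, 16.6 and 7.88 in IT and 5.63, 6.71 and 2.67 in FIT, with a log2 fold change of 1.35 (SE 0.40, adjusted p = 0.254). HMGCS1, which makes HMG-CoA, had 27.1, 39.7 and 10.3 in IT and 7.23, 21.8 and 6.88 in FIT and overlapped. The score of the list, the median over members of log2 CPM relative to each gene's FIT mean, was 0.89, 1.45 and 0.07 in the IT libraries and -0.07, 0.56 and -0.36 in FIT. Without IT replicate 3 there were 19 of 24 members higher in all remaining IT libraries, where 16.9% of all genes were. SCD, which makes monounsaturated fatty acids, had 196, 169.7 and 54.6 in IT and 34.9, 32.2 and 10.6 in FIT. SCD was called by all 3 other tests, with a log2 fold change of 2.43 (SE 0.58, adjusted p = 0.208). It was the member of the fatty acid list called by all 3 other tests with groups that did not overlap; 3 of 19 members of that list were higher in all IT libraries and 1 was lower.

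Cytokines and chemokines had a median of 1.12, with 4 of 20 members higher in all IT libraries and 0 lower. IL24, a cytokine of the IL10 family, had 1.49, 3.31 and 2.05 in IT and 0.304, 0.429 and 0.334 in FIT. The log2 fold change of IL24 was 2.65 (SE 0.46, adjusted p = 0.16), and it was called by all 3 other tests. CSF1, the growth factor of macrophages, had 30.9, 29.1 and 78.2 in IT and 17.4, 15.5 and 14.5 in FIT, with a log2 fold change of 1.55 (SE 0.39, adjusted p = 0.214). TNFAIP3, an inhibitor of NF-kappaB, had 3.88, 4.96 and 9.80 in IT and 3.59, 3.18 and 1.82 in FIT. CXCL8, the neutrophil chemokine, had 1.68, 11.5 and 6.70 in IT and 0.945, 3.62 and 1.17 in FIT and overlapped. IT replicate 3 was the highest library for CSF1 and TNFAIP3 and IT replicate 2 for IL24 and CXCL8, and the list score was 0.45, 0.57 and 1.70 in IT against -0.0022, 0.24 and -0.34 in FIT. Without IT replicate 3 the median was 0.76.

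Complement and coagulation genes went both ways, with 7 of 25 members higher in all IT libraries, 3 lower and a median of 0.09. C3, the central complement component, had 2.79, 10.7 and 15.8 in IT and 0.661, 1.95 and 2.39 in FIT. This gave C3 a log2 fold change of 2.54 (SE 0.69, adjusted p = 0.236), and C3 was called by all 3 other tests. PLAT, the tissue plasminogen activator, had 11.6, 3.09 and 5.71 in IT and 17.0, 16.2 and 24.7 in FIT, with a log2 fold change of -1.51 (SE 0.43, adjusted p = 0.244). C1S, CFB, C2, CD46, PROS1 and BDKRB1 were the other members higher in all IT libraries. F3, the tissue factor that starts coagulation, and F2R, a thrombin receptor, were the others lower.

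Chaperones of the endoplasmic reticulum were higher in all IT libraries for 7 of 19 members and lower for 0, with a median of 0.43. HSPA5, the chaperone BiP, had 288, 264 and 610.0 in IT and 198, 172 and 219 in FIT, with a log2 fold change of 0.99 (SE 0.33, adjusted p = 0.294). HSP90B1, the chaperone GRP94, had 206, 232 and 304 in IT and 135, 154 and 190.1 in FIT, with a log2 fold change of 0.63 (SE 0.22, adjusted p = 0.314). XBP1, a factor of this response, had 61.0, 35.9 and 34.6 in IT and 53.6, 27.0 and 41.1 in FIT and overlapped. No member was called by all 3 other tests. The ER stress element, CCAAT and CCACG separated by 9 bases, is rare, being found in 22 of all promoters (0.0806%), and 4 of the 19 promoters of this list (21.1%) held it, among them 2 of 7 higher in all IT libraries; it too was added after the data were seen. The promoters of HSPA5 and HSP90B1 are shown with each copy in capitals, the bases between its ends included.
HSPA5 (chr9:125241341-125241460, minus strand): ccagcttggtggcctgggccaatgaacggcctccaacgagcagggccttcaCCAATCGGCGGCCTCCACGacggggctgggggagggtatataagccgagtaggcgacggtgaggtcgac
HSP90B1 (chr12:103930196-103930359, plus strand): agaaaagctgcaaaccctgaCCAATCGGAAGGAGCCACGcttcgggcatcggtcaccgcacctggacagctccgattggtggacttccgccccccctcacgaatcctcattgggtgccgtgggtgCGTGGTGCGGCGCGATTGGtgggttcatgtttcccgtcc
In this window HSPA5 held 1 copy and HSP90B1 held 2.

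The ATF4 response, which cells mount when amino acids are short, rested on 1 library. DDIT3, the stress factor CHOP, had 49.9, 18.9 and 36.2 in IT and 11, 9.61 and 7.29 in FIT, with a log2 fold change of 1.91 (SE 0.35, adjusted p = 0.16). It was 1 of 5 members out of 28 that were higher in all IT libraries; 0 were lower. ASNS, the asparagine synthetase, had 13.6, 3.82 and 5.05 in IT and 2.13, 2.74 and 6.28 in FIT and TRIB3, an inhibitor of ATF4, had 30.6, 7.12 and 9.24 in IT and 8.32, 7.79 and 4.11 in FIT, so that IT replicate 1 stood above the other IT libraries in both. The list score was 1.06 in IT replicate 1 and 0.08 and 0.27 in the others, against -0.08 to 0.02 in FIT, and the median log2 fold change of 0.62 became 0.13 without IT replicate 1.

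Cytosolic ribosomal protein genes showed a small difference of the same sign throughout. All 41 members tested had a log2 fold change above 0, with a median of 0.35, and 30 of 41 were higher in all IT libraries while 0 were lower. RPL23 had 78.3, 75.9 and 87.3 in IT and 49.4, 56.5 and 54.8 in FIT, with a log2 fold change of 0.59 (SE 0.16, adjusted p = 0.236). No member of this list was called by all 3 other tests. These genes are usually regulated together and have many processed pseudogenes, so members are not independent and reads may be shared. Respiratory chain subunits of the nucleus were higher in all IT libraries for 8 of 34 members, with a median of 0.12.

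**Figure D4:**
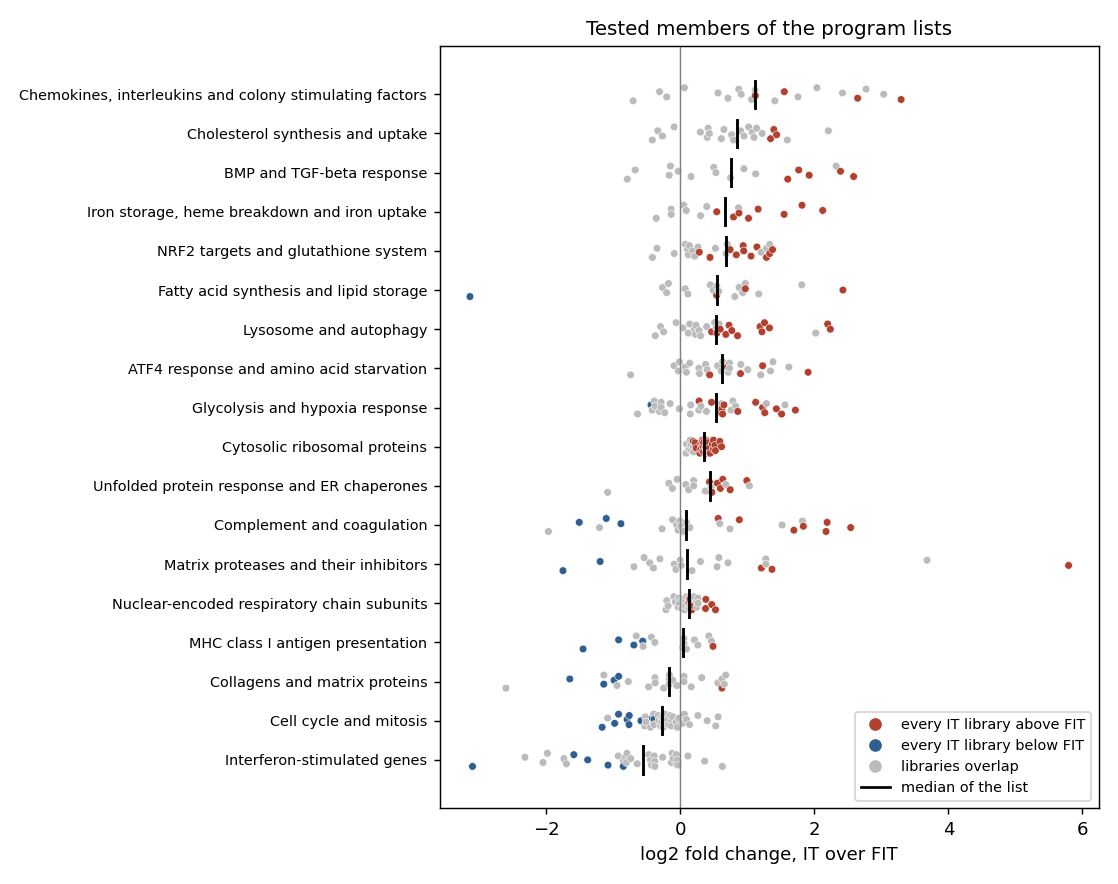
Log2 fold change of IT over FIT for each tested member of the program lists, with a black line at the median, red where every IT library lay above FIT, blue where every IT library lay below and grey where they overlapped. All 41 ribosomal protein genes lie above 0, and the interferon-stimulated genes lie mostly below 0.

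Interferon-stimulated genes lay lower after culture when compared with FIT replicates 1 and 2, but not with FIT replicate 3. Of 34 members tested, 5 were lower in all IT libraries and 0 higher, with a median of -0.56 and 3 members above 0. IFI27, an interferon-induced mitochondrial protein, had 0.339, 0.413 and 0.314 in IT and 5.13, 3.79 and 0.502 in FIT. IFI27 was called by all 3 other tests, with a log2 fold change of -3.10 (SE 0.74, adjusted p = 0.208). ISG15, the ubiquitin-like modifier, had 53.1, 43.3 and 60.1 in IT and 163, 105 and 64.9 in FIT, with a log2 fold change of -1.08 (SE 0.31, adjusted p = 0.249). OAS3, which senses double-stranded RNA, had 5.12, 5.84 and 3.60 in IT and 24.0, 13.1 and 7.17 in FIT, with a log2 fold change of -1.59 (SE 0.41, adjusted p = 0.22). GBP1, a guanylate-binding protein, had 5.87, 4.80 and 8.28 in IT and 24.1, 15.1 and 10.7 in FIT, with a log2 fold change of -1.39 (SE 0.32, adjusted p = 0.208). In all of them FIT replicate 3 was the fresh library closest to IT. IFIT1, which binds viral RNA, had 8.56, 6.81 and 6.20 in IT and 19.3, 10.4 and 4.26 in FIT and overlapped. In each of these 5 genes FIT replicate 1 was the highest library and FIT replicate 3 the lowest of the fresh tumors. The list score was 0.65, 0.18 and -0.78 in FIT and -0.27, -0.62 and -0.68 in IT. Without FIT replicate 3, 21 of 34 members were lower in all IT libraries, where 17.24% of all genes were, and the median was -0.96; without FIT replicate 1 the median was -0.10. FIT replicate 3 was also the shallow library and the one with the highest summed muscle markers, and the part of both in this result was not tested.

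The interferon element GAAANNGAA was present in 19 of 26 promoters of the list (73.1%), against 8.29% of all promoters. Of members lower in all IT libraries with a promoter in RefSeq, 4 of 5 held it, and those 4 are shown with the element or its reverse complement in capitals.
ISG15 (chr1:1013334-1013453, plus strand): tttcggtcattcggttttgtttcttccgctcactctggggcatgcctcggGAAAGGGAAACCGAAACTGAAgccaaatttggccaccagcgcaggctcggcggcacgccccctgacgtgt
IFI27 (chr14:94110579-94110698, plus strand): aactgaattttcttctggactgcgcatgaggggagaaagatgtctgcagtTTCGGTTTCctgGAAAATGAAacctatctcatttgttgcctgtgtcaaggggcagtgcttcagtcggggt
OAS3 (chr12:112938311-112938490, plus strand): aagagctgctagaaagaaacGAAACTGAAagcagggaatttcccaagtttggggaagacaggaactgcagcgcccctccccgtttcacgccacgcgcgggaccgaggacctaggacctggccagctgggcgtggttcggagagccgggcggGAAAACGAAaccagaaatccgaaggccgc
GBP1 (chr1:89065159-89065354, minus strand): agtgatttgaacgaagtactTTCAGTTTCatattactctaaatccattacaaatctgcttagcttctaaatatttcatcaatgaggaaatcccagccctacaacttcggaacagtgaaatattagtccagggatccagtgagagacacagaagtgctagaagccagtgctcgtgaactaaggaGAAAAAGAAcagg
In the list of antigen presentation genes 7 of 13 promoters held the same letters (53.8%), and 1 of 3 of its separated members did. The other motifs searched on both strands were the amino acid element TGATGNAA, in 6 of 24 promoters of the ATF4 list (25%) and 3.67% of all, the sterol element TCACNCCAC, in 1 of 18 of the cholesterol list (5.56%) and 1.15% of all, and the BMP element GGCGCC, in 5 of 13 of the BMP and TGF-beta response list (38.5%) and 19.0% of all. The AP-1 element TGANTCA was in 1 of 23 promoters of the immediate early list (4.35%) and 7.76% of all, and the metal element TGCNCNC, in 4 of 4 metallothionein promoters, was also in 55.2% of all.

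Antigen presentation by MHC class I, which interferon also induces, was divided. Of 17 members 4 were lower in all IT libraries and 1 higher, with a median of 0.03. NLRC5, the transactivator of MHC class I genes, had 4.38, 3.53 and 2.77 in IT and 12.3, 11.2 and 5.76 in FIT. The log2 fold change of NLRC5 was -1.45 (SE 0.31, adjusted p = 0.192), and it was called by all 3 other tests. The immunoproteasome subunits were lower too: PSMB8 had 12.8, 14.1 and 16.2 in IT and 24.0, 22.9 and 16.8 in FIT, with a log2 fold change of -0.56 (SE 0.20, adjusted p = 0.307). PSMB9 had 5.74, 7.48 and 7.81 in IT and 15.5, 10.6 and 8.27 in FIT, with a log2 fold change of -0.70 (SE 0.25, adjusted p = 0.326). PSMB10 had 10.6, 7.28 and 9.19 in IT and 19.9, 16.3 and 15.4 in FIT, with a log2 fold change of -0.92 (SE 0.20, adjusted p = 0.197). PSMB8 and PSMB9 were separated by a small gap, again between IT replicate 3 and FIT replicate 3. B2M, the light chain shared by class I molecules, had 99.5, 90.1 and 185 in IT and 135, 109 and 112 in FIT and overlapped. Without IT replicate 3 the median of the list was -0.62.

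Cell cycle genes were lower in all IT libraries for 9 of 43 members and higher for 0, with a median of -0.28. MKI67, the proliferation marker Ki-67, had 13.1, 7.20 and 8.89 in IT and 18.1, 20.5 and 26.8 in FIT. This gave MKI67 a log2 fold change of -1.17 (SE 0.25, adjusted p = 0.195), and MKI67 was the 1 member of the list called by all 3 other tests. TK1, a thymidine kinase of S phase, had 43.0, 47.5 and 19.5 in IT and 66.5, 64.6 and 78.1 in FIT, with a log2 fold change of -0.92 (SE 0.31, adjusted p = 0.294). PCNA, the sliding clamp of DNA replication, had 92.4, 86.3 and 46.8 in IT and 97.4, 101 and 103 in FIT, with a log2 fold change of -0.42 (SE 0.25, adjusted p = 0.548). TOP2A, a topoisomerase of dividing cells, had 46.9, 50.1 and 31.8 in IT and 34.7, 40.6 and 45.6 in FIT and overlapped. IT replicate 3 had the lowest score of the list, -0.91, against -0.11 and 0.03 in the other IT libraries and -0.26 to 0.16 in FIT, and without it the median was -0.07.

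Of 26 collagens and matrix proteins 4 were lower in all IT libraries and 1 higher, with a median of -0.17. TNC, the matrix protein tenascin C, had 44.5, 79.5 and 63.0 in IT and 124, 114 and 179 in FIT. TNC was the 1 member of this list called by all 3 other tests, with a log2 fold change of -1.15 (SE 0.27, adjusted p = 0.208). COL1A1, the main chain of type I collagen in bone, had 2.53, 12 and 4.61 in IT and 21.0, 19.6 and 20.2 in FIT, with a log2 fold change of -1.65 (SE 0.51, adjusted p = 0.264). COL6A3, a chain of type VI collagen, had 207, 239 and 231 in IT and 105, 158 and 177 in FIT and was the member higher in all IT libraries, with a log2 fold change of 0.62 (SE 0.25, adjusted p = 0.359). BMP1, which cuts the ends of procollagen, had 7.62, 8.66 and 9.15 in IT and 18.7, 20.2 and 24.0 in FIT, with a log2 fold change of -1.3 (SE 0.17, adjusted p = 0.0904). COL1A2, the partner chain of COL1A1, had 1.41, 7.90 and 17.7 in IT and 5.12, 6.39 and 16.9 in FIT and overlapped, so the 2 chains of type I collagen were not separated alike. Of proteases and their inhibitors, 3 of 22 were higher in all IT libraries and 2 lower. MMP1, the interstitial collagenase, had 92.5, 51.6 and 64.7 in IT and 46.5, 29.1 and 14.8 in FIT, with a log2 fold change of 1.21 (SE 0.40, adjusted p = 0.285), and ADAM19, a membrane-bound protease, had 17.1, 19.7 and 7.98 in IT and 51.3, 53.2 and 46.3 in FIT, with a log2 fold change of -1.75 (SE 0.32, adjusted p = 0.16).

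Among genes of the BMP pathway the antagonist and the ligands differed in direction. NOG, the secreted BMP antagonist noggin, had 73.9, 27.1 and 26.1 in IT and 6.12, 3.40 and 15.0 in FIT. The log2 fold change of NOG was 2.39 (SE 0.61, adjusted p = 0.22), and it was called by all 3 other tests. BMP4, a ligand, had 2.02, 1.98 and 1.56 in IT and 5.06, 3.54 and 12.6 in FIT, with a log2 fold change of -1.91 (SE 0.45, adjusted p = 0.208). BMP2, another ligand, had 1.80, 0.858 and 2.31 in IT and 5.15, 4.44 and 3.48 in FIT, with a log2 fold change of -1.40 (SE 0.38, adjusted p = 0.236). BMP and TGF-beta response genes were higher in all IT libraries for 5 of 17 members and lower for 0, with a median of 0.75. The score of the list was 1.92 in IT replicate 3 and 0.29 and 0.08 in the other two, and without IT replicate 3 the median was 0.20. In the Wnt list, FZD6, a Wnt receptor, had 40.0, 35.9 and 24.0 in IT and 130.5, 93.7 and 62.5 in FIT, with a log2 fold change of -1.52 (SE 0.30, adjusted p = 0.179), and 5 of 19 members were lower in all IT libraries and 3 higher.

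**Figure D5:**
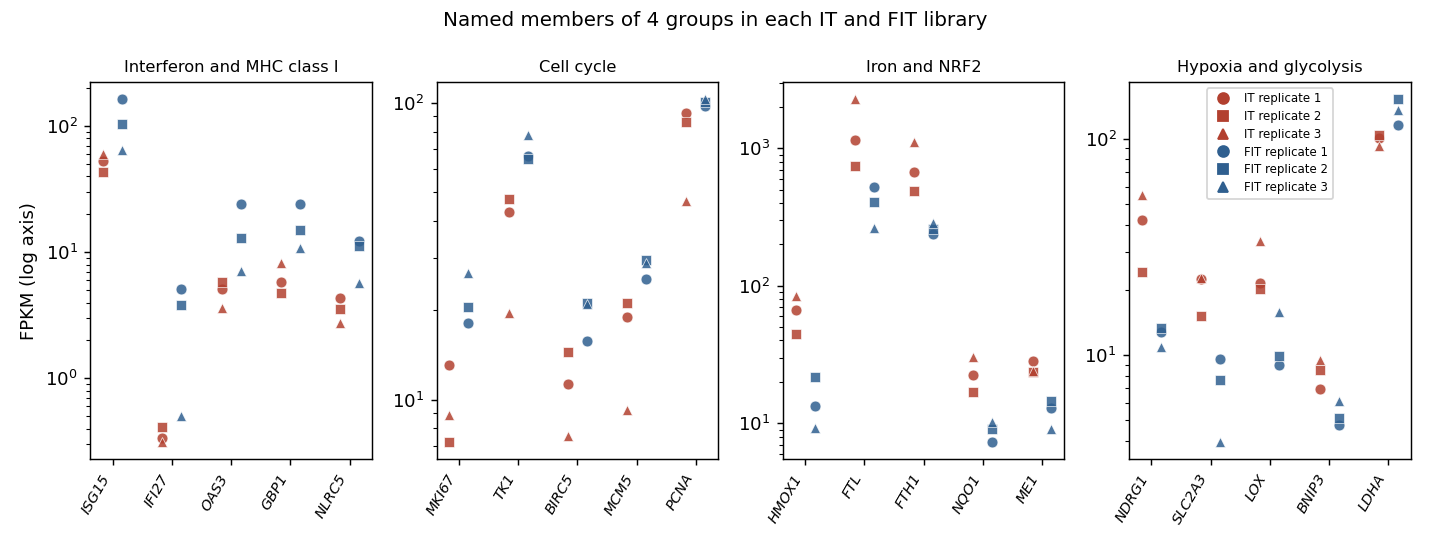
FPKM on a log axis of named genes in 4 groups, with red for IT, blue for FIT and a marker shape for each replicate. For the interferon and MHC class I genes FIT replicate 3 lies closest to the IT libraries, and for MKI67 the IT libraries cover 7.20 to 13.1 against 18.1 to 26.8 in FIT.

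The other programs are given by their counts alone. Immediate early genes were higher in all IT libraries for 1 of 31 members and lower for 2, heat shock chaperones for 1 and 0 of 17, clock genes for 2 and 1 of 17, glucocorticoid response genes for 1 and 1 of 14, nucleotide synthesis genes for 1 and 2 of 30 and metallothioneins for 0 and 0 of 5. YAP and TEAD targets gave 2 higher and 5 lower of 25, integrins, laminins and cadherins 7 higher (25.9%) and 5 lower of 27, and mesenchymal transcription factors 0 higher and 3 lower of 17. Prostaglandin genes gave 5 higher (38.5%) and 1 lower of 13, with the prostanoid receptors PTGFR and PTGIR higher: PTGFR had 12.3, 13.1 and 11 in IT and 8.40, 7.17 and 5.63 in FIT and PTGIR had 0.942, 0.683 and 0.708 in IT and 0.338, 0.266 and 0.251 in FIT. Of genes of tryptophan breakdown and the AHR response, 3 of 10 were higher (30%) and 0 lower. In the list of BMP, TGF-beta and activin ligands 2 of 16 were higher and 5 lower (31.2%). That list also holds BMP1, which is a protease and not a ligand, and BMP1 was among the 5 lower. Osteoblast genes gave 1 higher and 1 lower of 14, genes of insulin-like growth factors 2 and 1 of 13, the EGF receptor family 2 and 1 of 11, and retinoid and vitamin D response genes 2 and 2 of 12. Mitochondrially encoded genes gave 0 higher and 2 lower of 13, and clustered histone genes 0 and 2 of 17.

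Markers of host cell types were checked as whole lists, and most of their defining members were at or near 0. The summed FPKM of the 13 macrophage markers was 49.2 to 70.3 in IT and 25.3 to 61.9 in FIT. Most of it was CD68, a lysosomal protein that other cells also express. ADGRE1 had 4.675 to 5.482 over the 6 libraries and CSF1R 0.6125 to 2.35. The highest value over the 6 libraries was 0 for C1QA and 0.00627 for FCGR3A, which are defining markers. The sums of the 11 endothelial markers were 38.0 to 55.2 in IT and 37.3 to 52.4 in FIT. Most of each sum was TIE1, with 29.2 to 42.1 in IT and 27.9 to 39.1 in FIT. The sums of the 10 fibroblast markers were 66.2 to 110.5 in IT and 55.8 to 102.7 in FIT. Most of each sum was THY1 and PDGFRA together. The dispersed Saos-2 cells of D-3 also expressed them, with 51.7 to 65.5 for THY1 and 4.78 to 5.35 for PDGFRA. Lymphocyte markers summed to 0.715 to 2.49 in IT and 0.168 to 3.09 in FIT. None of the mast cell or red blood cell markers reached the level for testing. These sums overlapped between groups for all 12 host cell lists, and their part in the results above was not tested.

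Dispersed cells grown with Matrigel gave another view of the same IT libraries. The comparisons IT against FIT and IT against D-3 share the IT libraries, so they are not independent, and their values are only set side by side. Against D-3, 10 of 21702 genes tested (0.0461%) passed the threshold of the quasi-likelihood test, 8 higher and 2 lower in IT. CEMIP was among them, with 5.28, 6.06 and 6.18 in D-3 and a log2 fold change of IT over D-3 of 2.60 (SE 0.22, edgeR adjusted p = 0.0481). FGG had 0.888, 0.597 and 0.608 in D-3, a difference of 2.58 (SE 0.28, edgeR adjusted p = 0.0493). PECAM1, an adhesion molecule of endothelium, had 5.01, 3.29 and 3.76 in IT and 4.46, 2.93 and 3.40 in FIT and 0.855, 1.02 and 0.792 in D-3, a log2 fold change of IT over D-3 of 2.24 (SE 0.23, edgeR adjusted p = 0.0493). CEMIP and FGG were thus higher in all explants than in any library of fresh tumor or dispersed culture, while PECAM1 overlapped between IT and FIT and was low in D-3. TNFRSF19, a receptor of the TNF family, had 2.60, 2.28 and 2.45 in D-3, and its IT level of 8.33, 7.89 and 8.56 lay between those and 15.2, 9.51 and 13.0 in FIT. FABP4, a fatty acid carrier of adipocytes, had 0.0687, 0.0685 and 0.119 in IT, 3.20, 2.19 and 2.49 in D-3 and 0 in the 3 FIT libraries, with -4.77 (SE 0.47, edgeR adjusted p = 0.0493) for IT over D-3. IL20RB, a cytokine receptor chain, had 0.656, 0.523 and 0.299 in IT, 0.318, 0.203 and 0.443 in FIT and 6.15, 7.85 and 8.33 in D-3, with -3.83 (SE 0.35, edgeR adjusted p = 0.0493). Both genes were thus near 0 in tissue, cultured or fresh. PDGFRL, PAMR1, RNF144A and TM4SF1 were the others past the threshold, all higher in IT than in D-3. These calls were unstable: without IT replicate 1 or D-3 replicate 3 there were 0 calls, without IT replicate 2, D-3 replicate 1 or D-3 replicate 2 there was 1, and without IT replicate 3 there were 51; DESeq2 called 523.

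Set beside D-3, some of the genes that separated IT from FIT had their D-3 mean still further from FIT, and others did not; these genes were picked after their values were seen, and the means are given ± SD over 3 libraries. MMP3 had 37.8 ± 12.7 in D-3, against 14.1 ± 11.6 in IT and 0.254 ± 0.0652 in FIT. IL6 had 10.4 ± 2.77 in D-3, against 7.73 ± 5.57 in IT and 0.752 ± 0.523 in FIT. COL5A3 had 0.113 ± 0.0211 in D-3, against 0.245 ± 0.112 in IT and 3.81 ± 1.3 in FIT. By the means of these genes, IT lay between fresh tumor and dispersed culture. The IT libraries spread widely for MMP3 and IL6. HMOX1 had 131 ± 44.7 in D-3, against 65.2 ± 19.9 in IT and 14.8 ± 6.42 in FIT, which is the same order. KYNU had 1.32 ± 0.319 in D-3, against 2.27 ± 0.165 in IT and 0.558 ± 0.0799 in FIT, so that for this gene, as for CEMIP and FGG, IT was the highest group of the 3. None of MMP3, IL6, COL5A3, HMOX1 and KYNU passed the test of IT against D-3.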

How the data were processed

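Poly(A) RNA of 18 libraries, 3 in each of 6 groups, was sequenced as strand-specific paired reads, and the 6 IT and FIT libraries were compared. The authors deposited estimated counts and FPKM values per gene; the submitters' processing notes name cutadapt 1.9, HISAT2 2.0.4 and StringTie 1.3.4d, and the rule by which counts were made is not given in the sources used here. Deposited gene positions matched GENCODE 29 (GRCh38) for 99.98% of the 48223 genes found in it. The deposited estimated counts are whole numbers in steps of about 4 per read pair, so 3 read pairs correspond to 12 counts.

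Genes that reached 0.1 FPKM in 3 or more of the compared libraries entered the test on the counts with edgeR 4.0.16 (R 4.3.3; TMM scaling, quasi-likelihood test), with a Benjamini-Hochberg adjusted p of 0.05 and a fold of 2 as threshold; DESeq2 1.42.0, limma 3.58.1 and edgeR's likelihood-ratio test were alternatives. The scripts were tested on simulated counts. An exact permutation test of 3 against 3 libraries cannot go below p = 0.1, so none is given per gene. Depth limits precision most in FIT replicate 3, where 12 counts equal 0.506 CPM against 0.18 to 0.21 in the others. No 2 libraries held identical counts.

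The members and gene lists were chosen with earlier results of these data known. Of 1013 list symbols 1002 were found, 25 through an older symbol. Genes were named by a rule: the 12 highest and 12 lowest fold changes and the 12 smallest p-values in each direction, among genes without overlap, above 0 in all 6 libraries and averaging 1 FPKM or more in IT or FIT, then the first 2 and up to 5 members of smallest p per list; other list members and markers were named after their values were seen. Promoter sequences and their motifs came from RefSeq (GRCh38.p14) and describe letters only. The labels do not say whether the replicate numbers pair the libraries, and they were not treated as pairs. A few genes are not reported here.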

Additional observations from a re-analysis of the deposited data

How the results depend on the processing

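The count of 0 genes past the threshold between IT and FIT depended on the test: DESeq2 called 644 (426 higher, 218 lower), the likelihood-ratio test 433 (276 and 157), one fit of all 18 libraries 553 (402 and 151), limma on log2(FPKM + 0.1) 12 (5 and 7), and the fit of 36728 genes without a filter 53 (30 and 23). Leaving out 1 library gave 0 to 1, LSP1 without IT replicate 2 (adjusted p = 0.0429) and MIR1244-1 without FIT replicate 2 (adjusted p = 0.0333), both by edgeR. Further choices were added after seeing the data: edgeR's newer handling of small counts gave 0, and leaving out replicate 3 of both groups gave 1, RAB5B (edgeR adjusted p = 0.0219). The replicate block gave 0 calls. Deviations of same-numbered libraries had correlations of 0.066, 0.030 and 0.018, below the level set for treating them as pairs. Such low values cannot exclude that same-numbered libraries share a tumor. Genes without overlap numbered 1584 higher among the 12663 that pass an FPKM of at least 1, and 4839 higher and 4896 lower without replicate 3 of both groups; without 1 library they ranged from 3180 to 3546 higher and from 2668 to 3548 lower, as fewer libraries overlap less. List medians moved with limma on log2(FPKM + 1) for the BMP response (0.29) and NRF2 (0.43), at an FPKM of at least 1 for NRF2 (0.52), and with the replicate block for complement (0.27). Without replicate 3 of both groups they were 0.11 for the BMP response, 0.42 for cytokines, 0.32 for hypoxia, 0.48 for iron, -0.77 for MHC class I, 0.25 for proteases, 0.41 for NRF2 and 0.26 for ER chaperones. Without 1 library the medians ranged from 0.13 to 0.80 for ATF4, 0.20 to 1.26 for the BMP response, 0.39 to 0.68 for NRF2, 0.28 to 0.59 for hypoxia, -0.62 to 0.26 for MHC class I, 0.26 to 0.49 for ER chaperones, 0.10 to 0.41 for complement and -0.021 to 0.50 for proteases. Between IT and D-3 the 10 calls became 41 with counts divided by 4, 523 with DESeq2, 463 with the likelihood-ratio test, 57 and 21 with limma at a pseudocount of 0.1 and 1, 23 without a filter, 20 at an FPKM of at least 1, 200 in one fit of all 18 libraries, 1 with the replicate block and 0 to 51 without 1 library. The log2 fold changes of IT over FIT of the genes named with one kept their sign under every alternative run, while those of IT over D-3 were not recomputed gene by gene: 1034 of these values stayed on the same side of the threshold and 183 passed it. The cause of these changes was not tested.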
